A study of Mus musculus with 5 samples.

Results

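Described here are the proteases that cut extracellular matrix and their inhibitors in epithelial tumour cells of the mouse prostate: the secreted serine protease Htra1, the matrix metalloproteinases Mmp7, Mmp9, Mmp10, Mmp13, Mmp14 and Mmp15, and the tissue inhibitors Timp1, Timp2 and Timp3. Every probe set (a group of short probes read as 1 signal) whose only gene symbol in the array's annotation is one of these 10 names was taken, which gave 21 of the 45037 probe sets on the array, for 9 of the 10 genes. Mmp15 had no such probe set and was not analysed here. The members were chosen by gene family with the nTKO minus nDKO differences of these arrays already known, and Htra1 was selected on its log2 difference, so the differences below are a description and carry no test.

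Expression was measured on single-channel Affymetrix arrays, 1 array per mouse, in cells taken from dissociated tumours with EpCAM beads, which bind an adhesion protein of epithelial cells. The 2 nTKO mice were 31.43 weeks (nTKO 1) and 16 weeks old (nTKO 2), and the 3 nDKO mice were 15.86 weeks (nDKO 1), 10.71 weeks (nDKO 2) and 10.71 weeks old (nDKO 3). Both genotypes are on the C57BL/6 strain and carry floxed alleles, among them Smad4, deleted through the Probasin promoter, which is active in prostate epithelium, so that other cells of the tumour keep these genes. In nTKO mice floxed Pygo2, which encodes a co-activator of beta-catenin, is deleted in addition, and the design asks what its loss alters in the tumour cells.

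Matrix metalloproteinases are zinc enzymes made as inactive precursors, and together they cut collagens, laminins, fibronectin and many cell surface proteins. Timps block them by filling the active site, and Timp2 also helps Mmp14 at the cell surface to activate a further metalloproteinase. Htra1 belongs to another family, cuts matrix proteins such as fibronectin and fibulins, and is known to dampen TGF-beta signalling.

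Values are log2 signals as deposited, so a difference of 1 is a 2-fold one; they are not comparable between probe sets. The limma fit across all genes called 0 of 18193 genes, 0% (adjusted p under 0.05, smallest 0.853), with 689 genes at an unadjusted p under 0.05. With 2 arrays against 3 there are 10 splits, so the smallest exact permutation p for 1 gene is 0.1. Pygo2 was at 7.30 and 6.35 in nTKO cells and at 8.65, 8.62 and 8.72 in nDKO cells, with no overlap. The arrays nDKO 1 and nTKO 1 stood apart from the other 3 by squamous markers, with a median over 7 squamous genes of 9.62 and 5.55 in nTKO cells and of 11.57, 6.02 and 6.03 in nDKO cells. Epithelial markers (Epcam, Cdh1, Krt8, Krt18 and Krt19) were bright throughout, with medians of 13.12 and 13.41 in nTKO cells and 12.94 to 13.35 in nDKO cells.

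Of the 9 genes, Htra1, Mmp7 and Mmp14 were lower in each nTKO mouse than in any nDKO mouse, by all 6 of their probe sets. None of the 21 probe sets was higher in each nTKO mouse than in any nDKO mouse. Over all probe sets, 5.17% had both nTKO arrays below every nDKO array and 7.02% had both above, and over genes these shares were 4.71% and 8.13%. The shares over genes turned with the scaling, to 10.8% below and 8.1% above after quantile normalization and to 11.6% below and 5.67% above after median centring, with the same count of 3 member genes below and 0 above. Because the members were chosen with this contrast known, their count is not read against those shares. In bulk samples such as these, a difference in the number of cells of a type and one in RNA per cell cannot be told apart.

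By the brightest probe set of each gene, Htra1 had the widest range of the 9 genes over the 5 arrays. Its brighter probe set, 1416749_at, read 5.77 and 6.90 in nTKO cells and 7.83, 7.74 and 7.14 in nDKO cells. The 2 nTKO arrays lay below the 3 nDKO arrays, nTKO 1 well below and nTKO 2 only a little below nDKO 3. The means were 6.34 ± 0.80 in nTKO cells (SD, n = 2) and 7.57 ± 0.38 in nDKO cells (SD, n = 3). The log2 difference was -1.24 (SE 0.43), or 42.5% of the level in nDKO cells. Across all genes, 0.181% had a log2 difference of -1 or lower. Because Htra1 was selected on its difference, its value is not read against that share.

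The second Htra1 probe set, 1438251_x_at, whose suffix marks probes that may also match other transcripts, had the same order of groups. It read 6.18 and 6.72 in nTKO cells and 7.77, 7.31 and 6.86 in nDKO cells, a log2 difference of -0.86 (SE 0.34). On both probe sets nTKO 1 was the lowest array and nDKO 1 the highest, so the oldest mouse of each genotype stood at opposite ends. Without nTKO 1, the 31.43-week mouse, the differences were -0.67 and -0.59, and without nTKO 2 they were -1.80 and -1.13. With both nTKO 1 and nDKO 1 left out they were smallest, at -0.54 and -0.37. In the fit with log2 age the brighter probe set was at -0.72 (SE 0.65) and the second at -0.86. Between the mice closest in age across genotypes, nTKO 2 (16 weeks) and nDKO 1 (15.86 weeks), they were -0.93 and -1.05. The median over squamous markers was 5.55 in nTKO 2 and 11.57 in nDKO 1. This pair, also used below, is thus close in age but not in squamous state. Age and genotype are partly confounded here and cannot be fully told apart. In each genotype the oldest mouse also had the highest squamous median, so age and squamous state cannot be fully told apart either.

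The genes whose profile over the 5 arrays was most like that of Htra1 were Msln, Cenpb and Efna4. Likeness was measured as the root mean square difference over the 5 arrays after taking off each gene's own mean. It was 0.226 log2 units for Msln, the surface glycoprotein mesothelin, 0.251 for the centromere protein Cenpb and 0.287 for the ephrin ligand Efna4. Msln differed by -1.35, Cenpb by -1.01 and Efna4 by -0.97. Differences near that of Htra1 follow from this choice of genes and are no further result. Among the other members Mmp7 was nearest to Htra1 (0.467) and Mmp9 farthest (1.27).

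**Figure D1:**
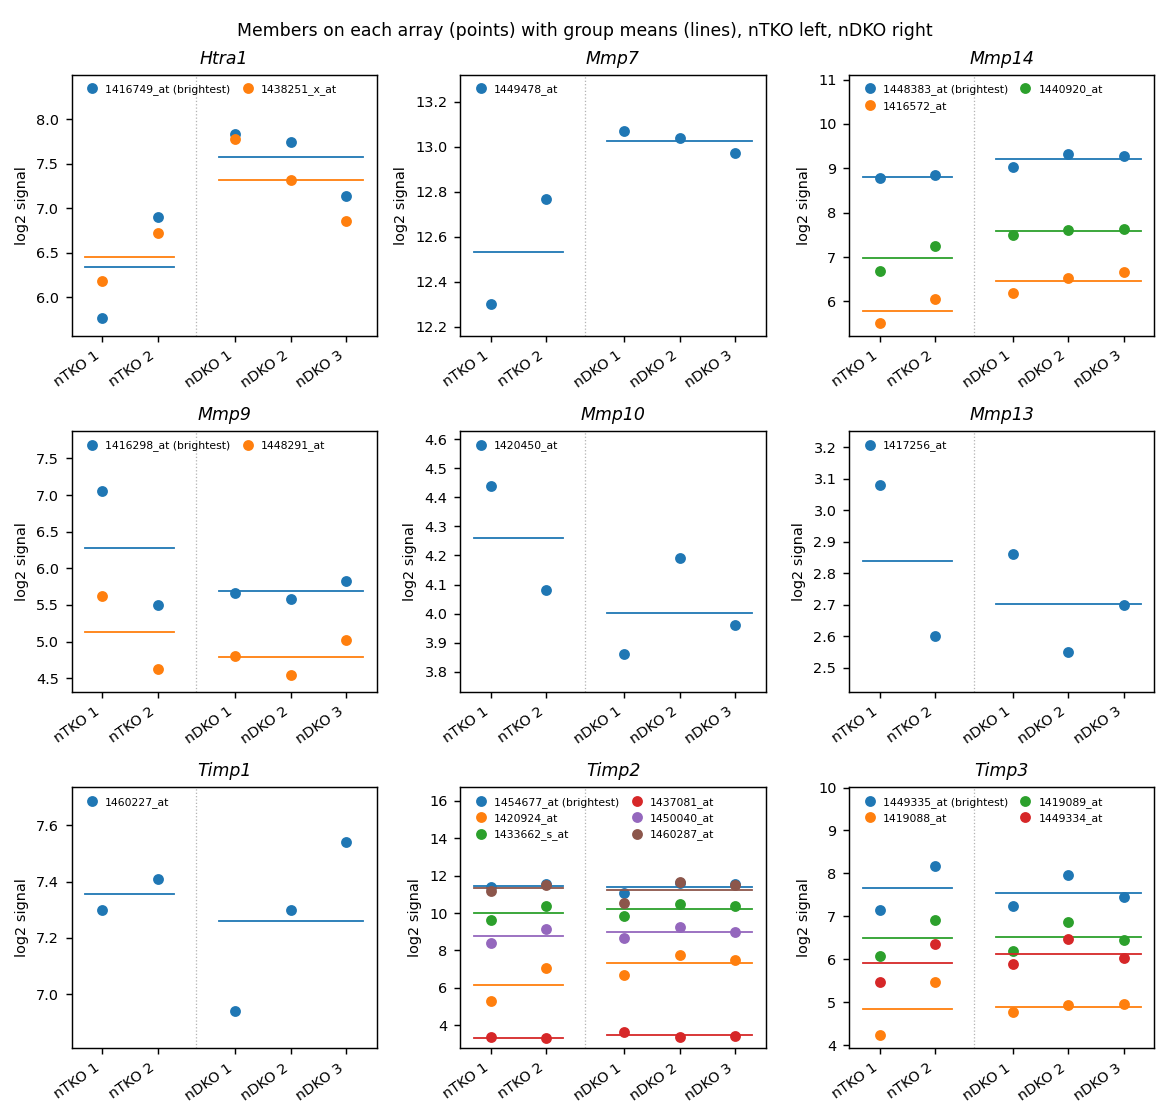
The log2 signal (vertical axis) of each member on each array, nTKO mice left and nDKO mice right of the dotted line in each panel, with 1 colour per probe set and horizontal lines at the group means. Htra1, Mmp7 and Mmp14 show both nTKO points below all nDKO points of the same colour, while Mmp9 shows 1 high point, nTKO 1 (7.06 on the brighter probe set); each panel has its own scale.

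Mmp14, the membrane-anchored collagenase also called MT1-MMP, was lower in both nTKO mice by all 3 of its probe sets. The brightest, 1448383_at, read 8.78 and 8.85 in nTKO cells and 9.03, 9.33 and 9.28 in nDKO cells. The means were 8.82 ± 0.05 in nTKO cells (SD, n = 2) and 9.21 ± 0.16 in nDKO cells (SD, n = 3), a log2 difference of -0.40 (SE 0.11). The gap between the groups was narrow but the 2 nTKO mice were close to each other, unlike for Htra1.

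The other Mmp14 probe sets showed larger differences and a wider spread of the nTKO mice. Probe set 1416572_at read 5.52 and 6.05 in nTKO cells and 6.20, 6.54 and 6.66 in nDKO cells (-0.68, SE 0.23). Probe set 1440920_at read 6.69 and 7.26 in nTKO cells and 7.50, 7.61 and 7.63 in nDKO cells (-0.61, SE 0.19). On each of the 3, nTKO 1 was the lowest array and nDKO 1 the lowest nDKO array. With log2 age as a covariate the 3 differences shrank to -0.22, -0.16 and -0.19, and between nTKO 2 and nDKO 1 to -0.18, -0.15 and -0.24. Without nTKO 1 they were -0.36, -0.42 and -0.32.

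Mmp7, matrilysin, is a small secreted metalloproteinase made by glandular epithelium and known as a Wnt target. Its signal was 12.30 and 12.77 in nTKO cells and 13.07, 13.04 and 12.97 in nDKO cells, near the upper end of the scale, where array signals are known to flatten. The 3 nDKO mice lay within a narrow band and both nTKO mice lay below it. The means were 12.54 ± 0.33 in nTKO cells (SD, n = 2) and 13.03 ± 0.05 in nDKO cells (SD, n = 3), a log2 difference of -0.49 (SE 0.16), or 71.1% of the nDKO signal. The difference was -0.26 without nTKO 1, -0.73 without nTKO 2, -0.23 in the fit with log2 age and -0.30 between nTKO 2 and nDKO 1.

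Mmp9, gelatinase B, cuts basement membrane collagen and is stored in neutrophil granules as well as made by tumour and stromal cells. Probe set 1416298_at read 7.06 and 5.50 in nTKO cells and 5.66, 5.58 and 5.83 in nDKO cells. Probe set 1448291_at read 5.62 and 4.63 in nTKO cells and 4.80, 4.54 and 5.02 in nDKO cells. On both, nTKO 1 alone was high and nTKO 2 lay within or below the nDKO range, so the groups overlapped. The differences of 0.59 (SE 0.50) and 0.34 (SE 0.35) rested on that mouse, and became -0.19 and -0.16 without it and 1.37 and 0.83 without nTKO 2.

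Several neutrophil markers were, like Mmp9, highest in nTKO 1. Of 10 listed, 9 were measured and 6 were highest there (S100a8, S100a9, Csf3r, Cxcr2, Camp and Ngp). Over all genes, 5599 of 18193 were highest in nTKO 1. Among other lists 4 of 5 endothelial and 0 of 8 macrophage markers were highest in nTKO 1, so this place is not particular to neutrophil markers. The mean log2 signal of all 9 neutrophil markers was 7.91 and 6.41 in nTKO cells and 7.06, 6.83 and 7.02 in nDKO cells. The calgranulin S100a8 was at 12.79 and 8.30 in nTKO cells and at 10.53, 9.66 and 10.37 in nDKO cells, and the chemokine receptor Cxcr2 was at 6.80 and 5.73 in nTKO cells and at 6.23, 5.99 and 6.33 in nDKO cells. Camp, Ngp, Elane and Mpo, granule genes of immature neutrophils, lay below the array medians of 4.94 to 4.98 on all 5 arrays. Lactoferrin (Ltf), a bright gene of the list that glandular epithelium also makes, did not share this shape, with 13.91 and 13.07 in nTKO cells and 13.92, 13.65 and 13.48 in nDKO cells. Elane was tied highest at 4.74 in both nTKO mice and Mpo was highest in nDKO 2. Mmp8, the neutrophil collagenase, had the same shape, with 6.01 and 4.38 in nTKO cells and 4.49, 4.19 and 4.38 in nDKO cells. The part of neutrophils in the Mmp9 values was not tested.

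Mmp10 (stromelysin 2) and Mmp13 (collagenase 3) are secreted enzymes, each with 1 probe set that lay below the array median on all 5 arrays. Dim probe sets may not follow the transcript. Mmp10 read 4.44 and 4.08 in nTKO cells and 3.86, 4.19 and 3.96 in nDKO cells (0.26, SE 0.16). Mmp13 read 3.08 and 2.60 in nTKO cells and 2.86, 2.55 and 2.70 in nDKO cells (0.14, SE 0.18). Both were highest in nTKO 1 and the groups overlapped. Without nTKO 1 the differences were 0.077 and -0.10.

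The genes Mmp13, Mmp10 and Mmp7 lie on mouse chromosome 9, and their start regions share sequence features although Mmp7 was lowest on the array where the other two were highest. Their promoters are printed for that reason, from 250 bases before to 50 bases after the annotated start, on the plus strand of GRCm38.p6 and from RefSeq, at chr9:7272264-7272563 for Mmp13, chr9:7502092-7502391 for Mmp10 and chr9:7691840-7692139 for Mmp7. The promoter of Htra1, at chr7:130935953-130936252 on the plus strand, is given beside them as that of the gene with the widest range by its brightest probe set. Capitals mark matches on either strand to TGANTCA (the AP-1 motif, the same on both strands), AGGAAG (an Ets motif), CTTTGAT (a TCF/LEF motif) and TATAAA.
Mmp13: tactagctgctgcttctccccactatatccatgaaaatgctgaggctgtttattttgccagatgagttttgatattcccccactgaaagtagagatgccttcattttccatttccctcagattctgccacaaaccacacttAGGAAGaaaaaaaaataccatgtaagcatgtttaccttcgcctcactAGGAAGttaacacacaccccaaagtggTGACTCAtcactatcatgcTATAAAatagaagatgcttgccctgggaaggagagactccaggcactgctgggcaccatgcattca
Mmp10: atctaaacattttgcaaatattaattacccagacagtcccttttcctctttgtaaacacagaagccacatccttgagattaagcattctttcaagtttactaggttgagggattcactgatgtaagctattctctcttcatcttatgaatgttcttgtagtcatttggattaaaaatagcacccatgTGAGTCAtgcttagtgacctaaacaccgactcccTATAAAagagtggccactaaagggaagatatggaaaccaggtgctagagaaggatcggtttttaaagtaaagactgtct
Mmp7: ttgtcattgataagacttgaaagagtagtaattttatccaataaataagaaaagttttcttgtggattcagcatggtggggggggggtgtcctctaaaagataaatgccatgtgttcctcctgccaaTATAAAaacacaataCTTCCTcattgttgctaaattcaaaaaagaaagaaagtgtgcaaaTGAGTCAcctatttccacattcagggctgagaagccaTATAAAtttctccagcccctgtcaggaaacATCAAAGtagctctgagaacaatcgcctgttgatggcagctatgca
Htra1: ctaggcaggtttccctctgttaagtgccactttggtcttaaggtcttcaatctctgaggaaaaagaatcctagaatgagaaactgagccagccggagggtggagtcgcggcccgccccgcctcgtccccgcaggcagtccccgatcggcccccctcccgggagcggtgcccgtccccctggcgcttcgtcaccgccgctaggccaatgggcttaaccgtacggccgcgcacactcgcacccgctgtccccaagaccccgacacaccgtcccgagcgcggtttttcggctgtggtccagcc

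The AP-1 motif begins 35 bases before the start in Mmp13 and 63 bases before it in both Mmp10 and Mmp7. It was found in these 3 of the 8 member genes that have a promoter in the table and in 7.81% of all 32851 promoters. TATAAA was found in the same 3 genes, against 13.6% of all promoters, beginning 16 bases before the start in Mmp13, 29 in Mmp10 and 26 and 123 in Mmp7. The TCF/LEF motif was found in Mmp7 alone among the members, 5 bases after the start, against 3.73% of all promoters. The Ets motif was found in 5 of the 8 (Mmp7, Mmp13, Mmp14, Timp1 and Timp3), against 35.4%. The Htra1 window holds none of these letters on either strand. A second annotated Mmp7 start, whose window overlaps the first, holds the TCF/LEF match again and 1 Ets match. These matches describe letters and not bound sites. Mmp9 has no entry in the table.

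The inhibitors overlapped between the genotypes by each of their 11 probe sets. Timp1, which blocks most secreted metalloproteinases and is known as an inflammation-induced inhibitor, read 7.30 and 7.41 in nTKO cells and 6.94, 7.30 and 7.54 in nDKO cells. The difference of 0.095 (SE 0.20) was smaller than the SD of the nDKO mice (0.30). It was 0.39 (SE 0.26) in the fit with log2 age, 0.47 between nTKO 2 and nDKO 1 and -0.065 without nDKO 1, the lowest array.

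Timp2 has 6 probe sets, and they did not give the same picture. The brightest, 1454677_at, read 11.38 and 11.54 in nTKO cells and 11.06, 11.62 and 11.55 in nDKO cells (0.05, SE 0.20), with nDKO 1 lowest. Probe set 1460287_at read 11.19 and 11.47 in nTKO cells and 10.52, 11.64 and 11.49 in nDKO cells (0.11, SE 0.40). By contrast, 1420924_at had the widest range of all 21 member probe sets, with 5.28 and 7.04 in nTKO cells and 6.69, 7.77 and 7.47 in nDKO cells. Its difference of -1.15 (SE 0.66) was -0.27 once nTKO 1 was left out, and was 0.39 in the fit with log2 age.

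The remaining Timp2 probe sets lay between these. Probe set 1433662_s_at read 9.61 and 10.35 in nTKO cells and 9.84, 10.47 and 10.37 in nDKO cells (-0.25, SE 0.32), and 1450040_at read 8.41 and 9.17 in nTKO cells and 8.64, 9.23 and 9.01 in nDKO cells (-0.17, SE 0.31). The dim 1437081_at read 3.38 and 3.30 in nTKO cells and 3.66, 3.38 and 3.44 in nDKO cells (-0.15, SE 0.10). Its groups overlapped only through the tie at 3.38. Differences between probe sets of 1 gene ran from -1.15 to 0.11, so a single Timp2 value does not stand for the gene.

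Timp3, which unlike the others binds to the matrix, varied more among mice of 1 genotype than between genotypes. Its brightest probe set, 1449335_at, read 7.15 and 8.17 in nTKO cells and 7.24, 7.96 and 7.45 in nDKO cells (0.11, SE 0.40). The other 3 probe sets had differences of -0.05 (1419088_at), -0.02 (1419089_at) and -0.22 (1449334_at). The nTKO mice took both the lowest and, on 3 of the 4 probe sets, the highest place. Without nTKO 1 the 4 differences were 0.62, 0.57, 0.40 and 0.23, and without nTKO 2 they were -0.40, -0.66, -0.43 and -0.67.

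All 4 Timp3 and 5 of the 6 Timp2 probe sets had their 2 lowest values in nTKO 1 and nDKO 1, the arrays with high squamous markers. Over all probe sets 9.77% had these 2 arrays lowest. Probe sets of 1 gene are not separate cases. By the brightest probe set 2 of the 9 genes had these arrays lowest, against 1803 of all 18193 genes. Of the other member probe sets, that of Timp1 was lowest in nDKO 1, with nTKO 1 and nDKO 2 tied next at 7.30. Decorin (Dcn), a matrix proteoglycan on the fibroblast list, was also lowest there, with 6.41 and 9.52 in nTKO cells and 7.87, 9.39 and 9.03 in nDKO cells. The other 6 fibroblast markers, among them Col1a1, Lum and Pdgfra, lay between 2.66 and 5.62. Of all 7, decorin alone was lowest in nTKO 1, and 4 were highest there (Col1a1, Col1a2, Col3a1 and Pdgfra). The mean of all 7, which includes decorin, was 4.55 and 4.87 in nTKO cells and 4.55 to 4.80 in nDKO cells. The part of squamous or stromal cells in the Timp values was not tested.

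**Figure D2:**
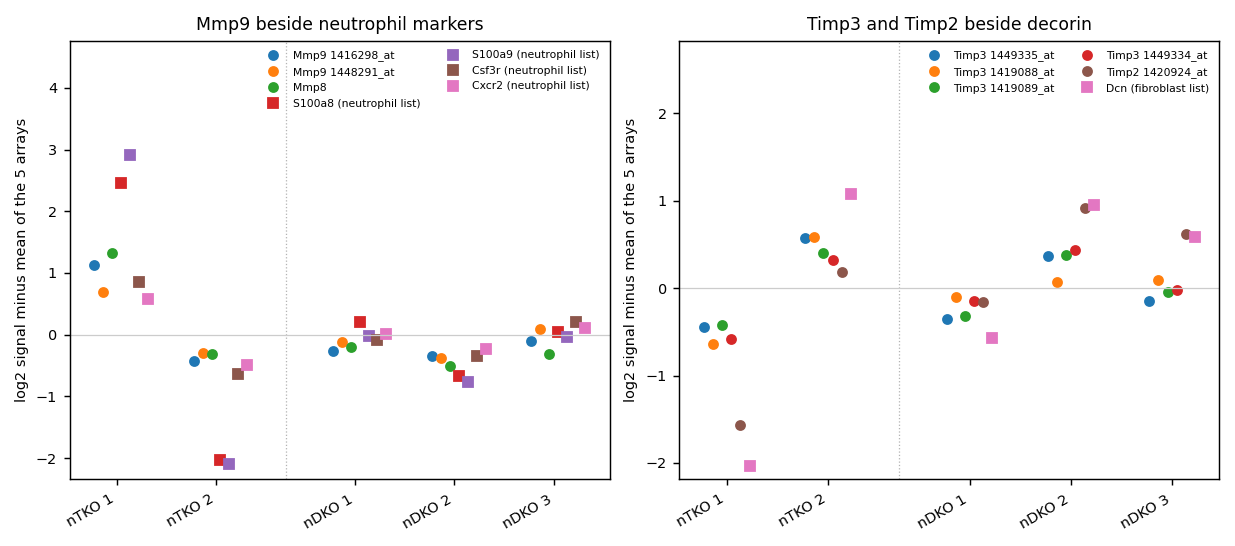
Log2 signal minus the probe set's mean over the 5 arrays (vertical axis), by array, for Mmp9 and Mmp8 (circles) with 4 neutrophil markers (squares) on the left and for Timp3 and 1 Timp2 probe set (circles) with decorin (squares) on the right; points of 1 array are spread sideways for legibility. The 4 markers (S100a8, S100a9, Csf3r and Cxcr2) are those of the 9 measured that were highest in nTKO 1 and not dim. The array nTKO 1 is highest for every item on the left, which for the markers follows from that choice. On the right nTKO 1 is lowest for every item and nDKO 1 next lowest. The Timp2 probe set shown, 1420924_at, was taken for its widest range. On 1454677_at and 1460287_at of Timp2 nDKO 1 was lowest instead, and on 1437081_at nTKO 2 was. Decorin was the only fibroblast marker of 7 that was lowest in nTKO 1, and 4 of the 7 were highest there.

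The members were also compared with each other by the brightest probe set of each gene. The closest pair was Timp1 and Timp2 (root mean square difference 0.103 log2 units over the 5 arrays). Mmp7 and Mmp14 (0.183), Mmp10 and Mmp13 (0.215) and Mmp10 and Timp2 (0.229) followed. This distance is not scaled, so genes that vary little lie close whatever their shape. For Timp2 it rests on 1454677_at alone, and the probe sets of Timp2 differed in shape. Mmp10 and Mmp13 were both dim, and nDKO 1 was the lowest array for Mmp10 but not for Mmp13. The array nTKO 1 was the lowest of the 5 on 13 of the 21 probe sets and the highest on 4, those of Mmp9, Mmp10 and Mmp13. Over all probe sets nTKO 1 was lowest on 17.4% and highest on 27.6%. Several member probe sets read the same gene. By the brightest probe set nTKO 1 was lowest for 4 and highest for 3 of the 9 genes, against 2539 and 5599 of all 18193. The members were chosen with this contrast known, so their counts are not read against these shares. Mmp9 with Mmp10 and Mmp13 stood opposite to Htra1, Mmp7, Mmp14 and the lower Timp2 and Timp3 values in this 1 mouse.

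**Figure D3:**
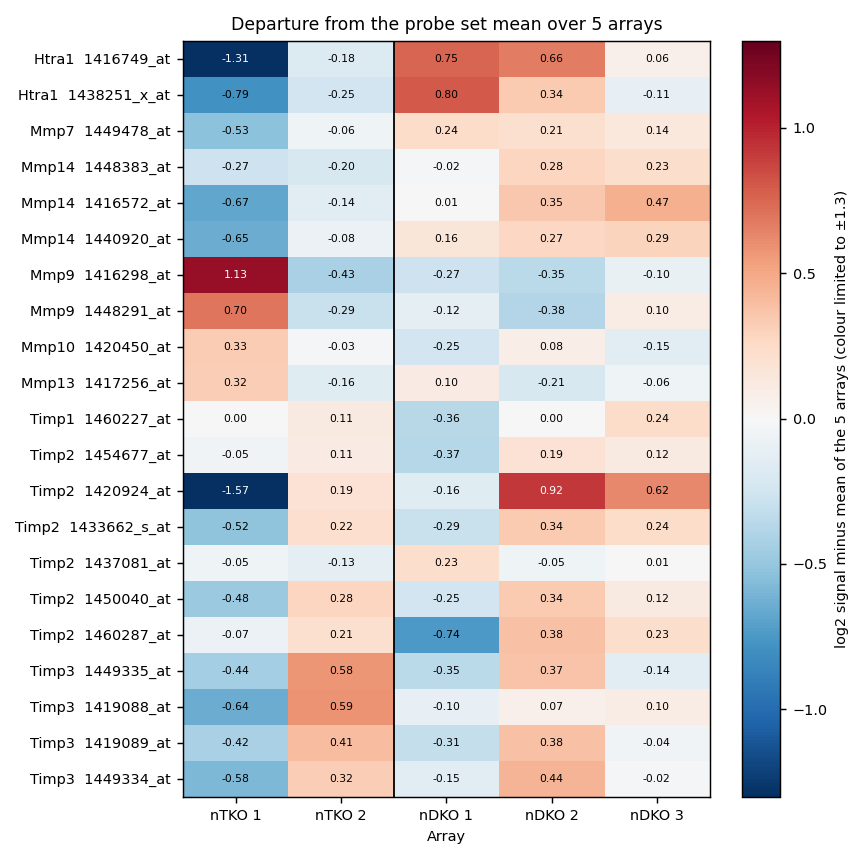
Each row is a member probe set and each column an array (nTKO left of the black line, nDKO right of it); colour and printed value give the log2 signal minus the mean of the 5 arrays. The column of nTKO 1 is blue for Htra1, Mmp7 and Mmp14 and red for Mmp9, Mmp10 and Mmp13.

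**Figure D4:**
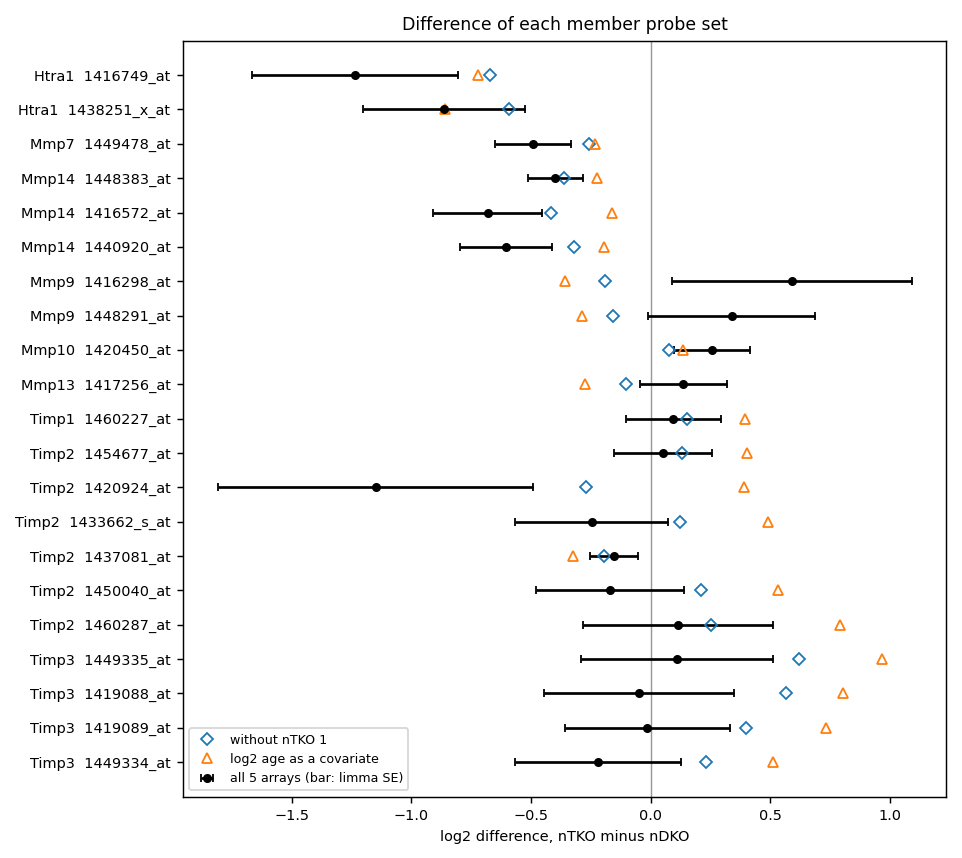
The log2 difference of nTKO minus nDKO (horizontal axis) for each member probe set over all 5 arrays (black, bar: limma standard error), without nTKO 1 (diamonds) and in a fit with log2 age (triangles). Htra1, Mmp7 and Mmp14 stay left of 0 in all 3 settings. Over all 5 arrays and without nTKO 1 this follows from both nTKO arrays lying below every nDKO array. Both Mmp9 probe sets cross 0, and the triangles of all 4 Timp3 probe sets lie at 0.51 to 0.97.

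Over the 21 probe sets, 13 had a lower and 8 a higher mean in nTKO cells, with a median log2 difference of -0.15, against 0.017 over all probe sets. This balance changed with the arrays used and with log2 age in the fit, where age and squamous state cannot be fully told apart. With log2 age 10 were lower and 11 higher (median 0.14), and between nTKO 2 and nDKO 1 likewise 10 and 11 (median 0.22). Without nDKO 1, 17 were lower and 4 higher (median -0.24). Without nTKO 1, 11 were lower and 10 higher (median -0.10), and without nTKO 2 16 were lower and 5 higher (median -0.43). By the brightest probe set, 3 of the 9 genes were lower and 6 higher, with a median of 0.095, against 0.028 over all 18193 genes. The limma fit called 0 of the 9 genes and 0 of the 21 probe sets, as it called 0% of all genes and 0% of all probe sets. At an unadjusted p under 0.05 there were 3 genes and 5 probe sets, where all genes gave 3.79% and all probe sets 3.80%, and nothing is read from these counts.

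Related genes were taken from 8 lists of proteases, inhibitors, substrates and regulators, with 82 genes measured. With limma, 0 of the 82 had an adjusted p under 0.05, 9 (11.0%) had an unadjusted p under 0.05, against 3.79% of all genes, and the median difference was 0.032. Both nTKO arrays lay below all nDKO arrays for 4 (4.88%) and above them for 8 (9.76%), close to the 4.71% and 8.13% of all genes. These lists were drawn up with results of these arrays known. Of 13 other metalloproteinases, 8 lay below the array median on all 5 arrays. The gelatinase Mmp2, which Mmp14 activates, read 5.46 and 5.55 in nTKO cells and 5.15, 5.28 and 5.11 in nDKO cells (0.33, SE 0.075). Mmp23 read 5.90 and 6.09 in nTKO cells and 6.35, 6.18 and 6.15 in nDKO cells (-0.23, SE 0.10). The other probe set of Mmp2 gave 0.34 and that of Mmp23 0.042. Mmp2 thus lay above and Mmp14 below the nDKO range in both nTKO mice.

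Of the HtrA family and other inhibitors, 7 were measured, 5 of them dim on all arrays, and in none did the groups separate. Htra2, a mitochondrial relative of Htra1, read 6.74 and 7.08 in nTKO cells and 7.17, 7.06 and 7.07 in nDKO cells (-0.19, SE 0.12). In the plasminogen activator system 4 of 8 genes were lower and 4 higher, and among the membrane serine proteases 5 of 9 were lower and 4 higher, with no separation of the groups in either list. Of 13 Adam and Adamts genes, 7 were lower and 6 higher. Adamts1, a secreted protease that cuts versican, read 7.35 and 7.96 in nTKO cells and 8.50, 8.24 and 8.14 in nDKO cells (-0.64, SE 0.23), with nTKO 1 lowest and nDKO 1 highest, as for Htra1. Adamts5 was dim, with a difference of 0.19.

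Of 10 cathepsins and cystatins, 3 were lower and 7 higher. The lysosomal protease Ctsl read 12.47 and 12.18 in nTKO cells and 11.69, 11.81 and 12.01 in nDKO cells (0.49, SE 0.14), while the cathepsin inhibitor Cstb read 11.84 and 12.06 in nTKO cells and 12.40, 12.31 and 12.15 in nDKO cells (-0.34, SE 0.12). Their other probe sets gave 0.64 for Ctsl and -0.44 for Cstb. The protease and the inhibitor thus lay on opposite sides of the nDKO range. Ctsk was dim, with a difference of 0.21. Of 11 matrix and basement membrane substrates, 5 were lower and 6 higher. The proteoglycan Bgn read 5.66 and 5.69 in nTKO cells and 5.07, 4.80 and 5.26 in nDKO cells (0.63, SE 0.15), and the dim collagen Col3a1 differed by 0.48. Other probe sets gave 0.19 and 0.0067 for Bgn and 0.048 for Col3a1.

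AP-1 and Ets factors, which are known to bind promoters of metalloproteinase genes, had 4 of 11 lower and 7 higher. Etv5 read 5.46 and 4.93 in nTKO cells and 4.22, 4.32 and 4.43 in nDKO cells (0.87, SE 0.18), Ets2 differed by 0.17, and Junb read 7.71 and 7.81 in nTKO cells and 8.13, 7.92 and 8.10 in nDKO cells (-0.29, SE 0.091). Other probe sets of Etv5 gave -0.05 and 0.21, and those of Ets2 0.0067 and 0.097. The limma adjusted p was 0.853 for each of the 12 genes of these lists whose groups did not overlap.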

How the data were processed

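The authors deposited log2 signals, 1 per probe set and array. Per the submitters' processing notes the tools were the Transcriptome Analysis Console and RMA (version not given in the sources used here). The RMA method corrects background, quantile-normalizes the arrays and summarises probes, which hides a shift shared by most genes and compresses dim probe sets. Scanner files and detection calls were not used here. Groups and ages came from the labels. The number of arrays limits the precision. A gene was represented by its brightest single-symbol probe set (mean over the 5 arrays), which gave 18193 genes from 34945 probe sets with 1 symbol. All entries were fitted with limma 3.58.1 in R 4.3.3 (lmFit, eBayes with trend, Benjamini-Hochberg, two-sided, threshold 0.05), once over genes and once over all 45037 probe sets, which gave the standard errors of the further probe sets. The fit was tested on simulated data. Members, gene lists and alternatives were chosen with earlier results of these data known. From each list, up to 3 genes whose groups do not overlap were named by size of difference. For Htra1, the gene with the widest range by its brightest probe set, the 3 nearest genes that are not predicted were named. Alternatives were other scalings, a filter at the median level, no trend, log2 age, the replicate number as a block, and arrays left out. Some items are not reported here.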

Additional observations from a re-analysis of the deposited data

How the results depend on the processing

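In the limma fits that kept both nTKO arrays, 0 genes and 0 probe sets were called. In the limma fits on all genes, from 442 (without nDKO 2) to 1901 (log2 age) had an unadjusted p under 0.05. The filter at the median level, which keeps only the brighter genes, gave 401. The smallest limma adjusted p over genes in these fits was 0.142, with log2 age. Where leaving out nTKO 1 or nTKO 2 leaves 1 nTKO array, that array is assumed to vary like the nDKO arrays. The 9 gene differences, by the brightest probe set, were computed in 135 further settings and probe sets, and 29 of these moved by more than 1 residual SD and 22 had the other sign. The differences of Htra1, Mmp7 and Mmp14 were below 0 in each setting run, and that of Mmp10 was above 0. For Htra1, Mmp7 and Mmp14 both nTKO arrays lay below every nDKO array. Leaving out arrays, the replicate block and the pair nTKO 2 and nDKO 1 therefore could not turn their sign. Mmp9 and Mmp13 had the other sign when nTKO 1 was left out (-0.19 and -0.10), in the fit with log2 age (-0.36 and -0.27), between nTKO 2 and nDKO 1 (-0.16 and -0.26), and with both nDKO 1 and nTKO 1 left out (-0.21 and -0.025), where Timp1 (-0.01) and Timp2 (-0.045) turned as well. The sign of Timp2 and Timp3 turned without nTKO 2 (-0.03 and -0.40) and between probe sets, and Timp1, Timp2 and Timp3 turned without nDKO 1 (-0.065, -0.13 and -0.045). Quantile normalization and median centring turned no sign, and under each of them 7 in place of 6 member probe sets had both nTKO arrays below every nDKO array, against 10.7% and 7.46% of all probe sets (0 members above, against 8.09% and 7.37%). With the replicate number as a block, 0 genes were called and Htra1 was at -1.45, Mmp7 at -0.52 and Mmp14 at -0.37. The numbers are not taken as pairs, since the mice are separate and only 2 numbers are shared. Across probe sets the deviations of same-numbered arrays correlated at 0.377 and 0.311, and those of nTKO 2 and nDKO 3 at 0.244. With 2 nTKO arrays, the deviations of 1 mirror those of the other, so these values do not show pairs. The cause of these shifts was not tested.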

Other observations

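Some genes of the protease lists varied widely among the 5 mice without separating the genotypes; they were chosen after their values were seen. The macrophage elastase Mmp12 was at 5.61 and 4.14 in nTKO cells and at 5.90, 4.61 and 4.44 in nDKO cells, and the sheddase Adam8 at 8.77 and 7.73 in nTKO cells and at 9.65, 8.22 and 8.52 in nDKO cells. Both were highest in nDKO 1 and nTKO 1, the arrays with high squamous markers. Macrophage markers had medians of 7.85 and 7.32 in nTKO cells and of 8.04, 7.58 and 8.58 in nDKO cells. The cystatin Cst6 spanned 5.12 log2 units, with 9.87 and 4.75 in nTKO cells and 6.93, 9.33 and 8.61 in nDKO cells, so the 2 nTKO mice held both the highest and the lowest value. The tissue plasminogen activator Plat stood at 8.12 and 9.11 in nTKO cells and at 8.24, 7.81 and 8.17 in nDKO cells, with nTKO 2 alone high. Timp4, an inhibitor outside the members, read 6.73 and 7.59 in nTKO cells and 6.58, 7.26 and 7.97 in nDKO cells, and was lowest in nDKO 1 and nTKO 1, as were 5 Timp2 and 4 Timp3 probe sets.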
